A study of Homo sapiens with 27 samples.

Results

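LN523 and LN323 matrices were compared at day 2, when H1 human embryonic stem cells (hESCs, an established line) were still near pluripotency. The comparison comprised 6 bulk RNA-seq libraries of the 27 in the series, 3 on LN523 and 3 on LN323, taken by the matrix and day in their column names. All of the cells were H1 hESCs of passages 10 to 25, labelled undifferentiated and kept in stem cell medium up to the day on which neural induction began. By the labels, the LN323 wells were coated with laminin 323 alone and the LN523 wells with laminin 523 plus laminin 323. The study's methods instead give LN523 plus LN521, LN323 plus LN521 and LN521 alone, and each matrix is therefore called by its first isoform below. The recombinant LN523 came from human embryonic kidney cells, which also make a minor amount of LN521. The 3 LN521 libraries of day 2, labelled as coated with laminin 521 plus laminin 323, entered the fit to share its estimate of the spread, and are shown beside the others. Sample titles number day 2 as day 0. Replicates 1, 2 and 3 were sequenced in lanes 1, 2 and 3, and no label says that they came from separate cultures, so the p-values reflect at most the spread between these libraries. In the fit over all genes, that spread is shared between genes of a similar level and is not each gene's own.

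Laminins are basement membrane proteins made of an alpha, a beta and a gamma chain. LN523 and LN323 share the beta and the gamma chain and differ in the alpha chain, whose end domains bind integrins and dystroglycan. Human pluripotent cells depend on FGF signalling through the kinase ERK, which induces its own inhibitors (the SPRY and DUSP families and IL17RD) and ETS factors such as ETV4 and ETV5. BMP signalling induces the ID proteins, and the balance between FGF, BMP, WNT and NODAL signals sets whether the cells stay pluripotent or turn to neural, surface ectodermal or mesendodermal fates.

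The 6 libraries held 27855193 to 47195638 counts, and the 3 LN521 libraries held 30577756 to 40689003. Levels are given as CPM (counts per 1e+06 counts after TMM normalization) in the order of replicates 1, 2 and 3. All 8 pluripotency markers fixed for the comparison (POU5F1, NANOG, SOX2, LIN28A, DNMT3B, TDGF1, L1TD1 and ZFP42) exceeded 1 TPM in each of the 6 libraries, and their summed level was 11041 to 11941 TPM on LN523 and 10936 to 11540 TPM on LN323. Of the markers of other cell types, 4 of 6 for neuroectoderm, 4 of 5 for mesendoderm and 5 of 5 for endoderm stayed under 1 TPM in all 6 libraries. The replicates of a matrix did not group together. On the first principal component of the 6 libraries (37.8% of the variance over 21443 genes), LN323 replicates 1 and 3 (34.1 and 59.5) lay with LN523 replicate 2 (35.5), and LN323 replicate 2 (-41.2) lay with LN523 replicates 1 and 3 (-11.1 and -76.8). Within a lane, the LN523 and the LN323 library mostly lay on opposite sides of their group means, with a mean Pearson's r of -0.18 across genes (-0.34 to 0.04 over the 3 lanes), and genes are not independent replicates. Values below are from the fit with lane as a block unless stated, a named gene whose call differs without it is pointed out, and the levels stand in lane order. Adjusted p-values of the day 2 comparison are from the fit over all genes, and none stayed under 0.05 with low-count genes left out.

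The calls in this paragraph are from the fit over all genes, in which simulated data gave a share of false calls above the threshold. The simulated libraries lacked the lane and library differences of the real ones, so the share in the real data is not known. No gene passed with low-count genes left out, with limma-voom, with DESeq2 without lane, or in a blocked fit of the 6 libraries alone. On LN523, 8 of 31 FGF and ERK genes were lower than on LN323, among them DUSP6, SPRY4, ETV4, ETV5, DUSP5 and IL17RD. The WNT modulator SFRP2 and the surface protein THY1 were lower too. The BMP-induced regulators ID1 and ID4 were higher, as were the transcription factor genes IRX1, IRX2, SOX21, FEZF1 and OLIG3 and the adhesion genes CDH6, PCDH7, PCDH8 and PCDH18, which are named because they passed and do not stand for their families: 1 of 28 early neural and eye field genes, 1 of 30 cadherin and junction genes and 0 of 53 clustered protocadherins passed. No gene of the laminin chains, laminin receptors or focal adhesions passed the test, nor did POU5F1, NANOG or SOX2. With lane as a block, 90 of 38650 genes tested (0.233%) had an adjusted p under 0.05 in the quasi-likelihood test of edgeR after Benjamini-Hochberg correction, 50 higher on LN523 (0.129%) and 40 lower (0.103%). Without the block there were 103 (0.266%), 64 higher and 39 lower, and 81 genes were called in both fits (46 higher and 35 lower). The unadjusted p was under 0.05 for 921 genes (2.38%) with the block and 1372 (3.55%) without it.

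The direction of these calls was that of lanes 1 and 3. Of the 50 genes called higher, LN523 was above LN323 in 44 in lane 1, 15 in lane 2 and 50 in lane 3, with median log2 differences of 2.30, -0.61 and 2.51. Over 15545 genes with at least 1 CPM in a group mean, LN523 was above in 44.6%, 52% and 48.6% of genes. Of the 40 called lower, LN523 was below in 40, 6 and 40, with medians of -1.98, 0.92 and -2.10, so that most calls pointed the other way in lane 2. For 34 of these 40 genes, LN323 replicates 1 and 3 and LN523 replicate 2 were the 3 highest of the 6 libraries, as they were for 21.4% of the 15545 genes. In 35 of the 50 genes called higher, these same libraries were the 3 lowest, beside 16.2% of the 15545 genes. This order was looked for after the values were seen. The same sign in all 3 lanes held for 15 of the 90, beside 14.6% of the 15545 genes, and groups that did not overlap for 8 of the 50 and 5 of the 40, beside 3.12% of the 15545 genes above and 3.56% below (6.68% in all).

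**Figure D1:**
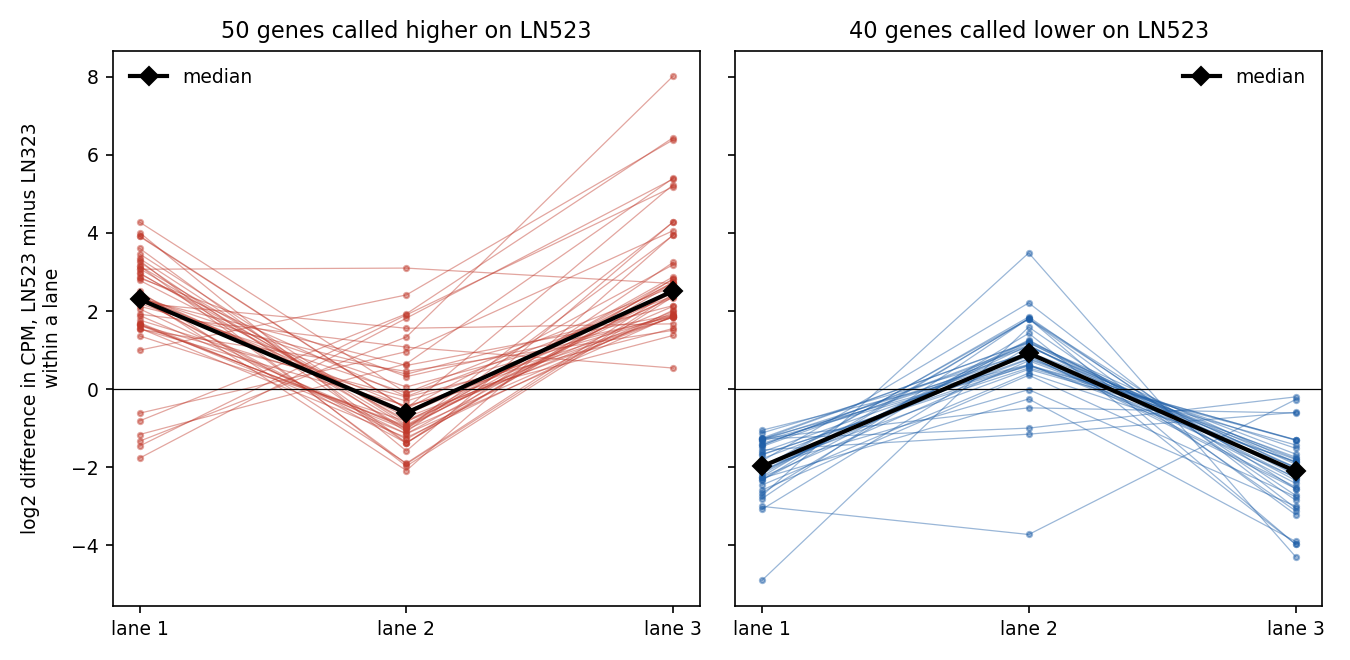
Log2 difference in CPM between the LN523 and the LN323 library of each lane for the 50 genes called higher and the 40 called lower on LN523, with a line for each gene and the median in black. The medians are 2.30, -0.61 and 2.51 for the first set and -1.98, 0.92 and -2.10 for the second, so lane 2 points the other way in both.

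All 90 calls ended when genes with few counts were left out before the fit (edgeR's filterByExpr, 21443 genes, 0 called and 376 or 1.75% with an unadjusted p under 0.05), although all 90 genes passed that filter. In the fit over 38650 genes, every gene was given the same quasi-likelihood spread at its level. In the filtered fit, where a gene's own replicates counted too, the spread was larger for each of the 90 (median ratio 4.86, against 0.901 over all genes that passed the filter). Single libraries also set the count, which was 11 without LN323 replicate 1, 763 without LN323 replicate 2, 16 without LN323 replicate 3, 8 without LN523 replicate 1, 343 without LN523 replicate 2 and 43 without LN523 replicate 3. With its own per-gene spread and lane as covariate, DESeq2 called 706 genes (1.83%), of which 687 had counts in 3 or fewer of the 9 libraries and 12 were among the 90, and without lane it called 0 (817 with an unadjusted p under 0.05). The named genes that both tools called with lane in the model were ID4, IGFBP3, IRX1, PCDH7, PCDH8, KDR, EDNRB and SHISA3. Of the named genes called, IRX2, PCDH8, FAM20A and TRPC4 kept the call without LN323 replicate 1, and DACT1 alone kept it without LN523 replicate 1. Without LN323 replicate 3 it held for ID4, IGFBP3, FEZF1-AS1, IRX2, IRX2-DT, OLIG3, PCDH7, PCDH8, CDH6, EDNRB, APELA, FAM20A, NRN1 and TRPC4. The size of the differences rested on single libraries too. Of the 54 genes followed, 40 moved by over 1.5 times in fold when some library was left out: 35 without LN323 replicate 2 and 30 without LN523 replicate 2, nearly all away from 0, and 10, 19, 16 and 8 without LN323 replicates 1 and 3 and LN523 replicates 1 and 3, towards 0 with few exceptions. Leaving out an LN521 library moved 0. In bulk RNA, a lower level in each cell and fewer cells that express a gene cannot be told apart.

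The FGF and ERK feedback list, whose members were chosen with earlier results of these data known, held 31 genes tested. With the block 8 were lower and 1 higher on LN523, beside 0.103% and 0.129% of all genes tested. The counts were the same without the block. The count of members called was 0 without LN323 replicate 1, LN323 replicate 3 or LN523 replicate 1, 2 without LN523 replicate 3, and 14 without LN323 replicate 2. The list's median log2 fold change was -0.24, against -0.02 over all genes that passed the filter, and within lanes it was -0.31, 0.26 and -0.50. List medians here and below are over the members that passed the low-count filter, 29 in this list. DUSP6 (ENSG00000139318, GRCh38 chromosome 12, 89347235 to 89352501, minus strand), the cytoplasmic phosphatase of ERK, stood at 6.25, 57.6 and 5.04 CPM on LN523 and 42, 5.08 and 99.7 CPM on LN323. The high libraries were LN323 replicates 1 and 3 and LN523 replicate 2, and the groups overlapped. DUSP6 was 3.51-fold lower on LN523 in the fit (log2 fold change -1.81 ± 0.28 (SE), adjusted p = 3.13e-07 in edgeR with the lane block). Without the block the log2 fold change was -1.09 (adjusted p = 7.44e-05 in edgeR), more than 1.5 times smaller in fold. The lane differences were -2.74, 3.49 and -4.29. Leaving out LN523 replicate 3 gave -0.70 and leaving out LN323 replicate 2 gave -3.04. The LN521 libraries, at 3.87, 12.4 and 8.13 CPM, lay below the 3 high libraries. Of its exons, 28.6% overlap a gene on the opposite strand, whose reads cannot be told apart there without strand.

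SPRY4 (ENSG00000187678), a Sprouty inhibitor of receptor tyrosine kinase signalling, was at 29.8, 110.5 and 19.1 CPM on LN523 and 120.1, 31.7 and 178 CPM on LN323. ETV4, an ETS factor induced by FGF, was at 36.9, 111 and 22 CPM on LN523 and 154, 30.8 and 158 CPM on LN323. In both genes LN523 replicate 2 lay near the high LN323 libraries and LN323 replicate 2 near the low LN523 libraries. The fits gave log2 fold change -1.36 ± 0.22 (SE), adjusted p = 2.78e-06 in edgeR for SPRY4, and log2 fold change -1.34 ± 0.22 (SE), adjusted p = 2.60e-06 in edgeR for ETV4. IL17RD, a membrane inhibitor of FGF receptors, had a smaller lane 2 difference (0.73), at 24.7, 73.4 and 32.3 CPM on LN523 and 118, 44.3 and 113 CPM on LN323 (log2 fold change -1.20 ± 0.21 (SE), adjusted p = 1.98e-05 in edgeR). ETV5 (-1.28, adjusted p = 0.001 in edgeR), the nuclear ERK phosphatase DUSP5 (-1.29, 0.001) and MYC (-0.81, 0.0242) followed the same order of libraries. FGF19, a secreted ligand, was at 2.63, 7.76 and 5.07 CPM on LN523 and 14.7, 5.83 and 18.5 CPM on LN323, and its lane 2 difference was small (0.41; log2 fold change -1.36 ± 0.32 (SE), adjusted p = 0.0135 in edgeR). Leaving out each day 2 library gave -2.32 to -0.53 for SPRY4, -2.27 to -0.42 for ETV4 and -1.87 to -0.76 for IL17RD, each nearest to 0 without LN323 replicate 3 or LN523 replicate 1 and farthest without LN323 replicate 2. The unadjusted p of these 8 genes in the fit without low-count genes was 0.0138 to 0.148.

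**Figure D2:**
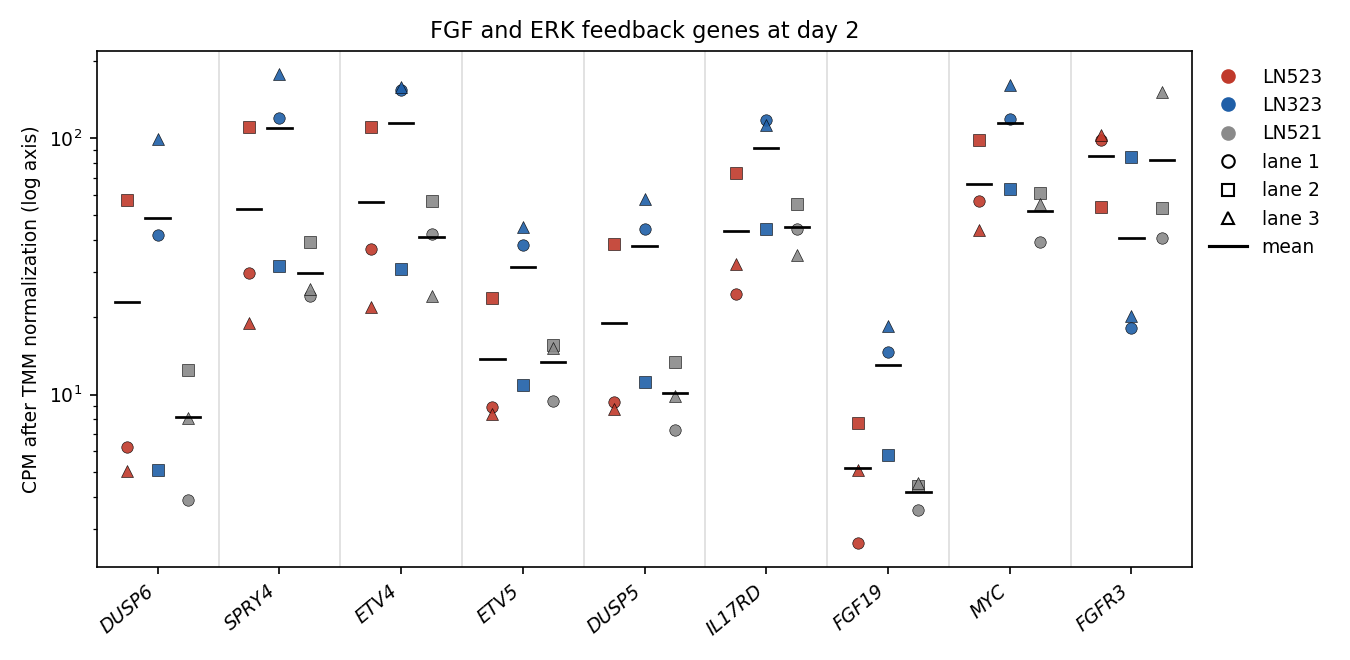
CPM on a log axis of 9 FGF and ERK feedback genes in each day 2 library, with colour for the matrix, symbol for the lane and a bar for the mean of 3. In the first 8 genes the LN523 square (lane 2) lies above the other LN523 libraries and above the LN323 square, and in FGFR3 it lies below both.

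Among the receptors, FGFR3 was at 98.2, 53.7 and 103 CPM on LN523 and 18.1, 84.4 and 20.3 CPM on LN323 and was higher on LN523 (log2 fold change 1.23 ± 0.21 (SE), adjusted p = 1.45e-05 in edgeR), with LN323 replicate 2 inside the LN523 range. FGFR1, FGFR2 and FGFR4 gave log2 fold changes of 0.26, 0.25 and -0.11 without passing the test. FGF2, the ligand that the stem cell medium relies on, was at 168, 162 and 179.8 CPM on LN523 and 109, 142 and 128 CPM on LN323, and these groups did not overlap, but it did not pass (log2 fold change 0.43 ± 0.18, adjusted p = 1 in edgeR, unadjusted p = 0.0145 without low-count genes). Other feedback genes differed less between the matrices. SPRY1, SPRY2 and DUSP4 gave -0.23, -0.49 and -0.53, SPRED1, SPRED2 and SPRED3 gave -0.16, -0.19 and -0.20, and ETV1 gave -0.36, none past the threshold. Outside the ligands, receptors and feedback genes, the synaptic immediate early gene ARC was also lower (log2 fold change -1.25 ± 0.32 (SE), adjusted p = 0.0415 in edgeR), a call lost without the block (adjusted p = 0.209 in edgeR). The receptor adaptor SHC3 stood at 1.95, 5.55 and 2.39 CPM on LN523 and 16.9, 2.57 and 9.76 CPM on LN323 (log2 fold change -1.67 ± 0.35 (SE), adjusted p = 0.00168 in edgeR).

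Promoters are shown for 3 genes on which the FGF and BMP results turn, as the 250 bases before the start in RefSeq (GRCh38.p14, 5′ to 3′ on the gene's own strand), at chr12:89352502-89352751 (minus), chr5:142324248-142324497 (minus) and chr6:19837120-19837369 (plus). Capitals mark a match to a searched motif.
DUSP6: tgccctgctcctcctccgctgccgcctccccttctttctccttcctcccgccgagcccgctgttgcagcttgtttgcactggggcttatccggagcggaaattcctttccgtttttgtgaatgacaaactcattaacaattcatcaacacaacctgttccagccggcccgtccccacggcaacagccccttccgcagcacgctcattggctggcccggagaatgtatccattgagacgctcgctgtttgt
SPRY4: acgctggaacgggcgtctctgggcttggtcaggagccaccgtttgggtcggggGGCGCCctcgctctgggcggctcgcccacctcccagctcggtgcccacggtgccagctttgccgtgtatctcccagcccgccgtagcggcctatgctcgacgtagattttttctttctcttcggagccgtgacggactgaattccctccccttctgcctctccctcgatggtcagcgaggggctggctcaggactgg
ID4: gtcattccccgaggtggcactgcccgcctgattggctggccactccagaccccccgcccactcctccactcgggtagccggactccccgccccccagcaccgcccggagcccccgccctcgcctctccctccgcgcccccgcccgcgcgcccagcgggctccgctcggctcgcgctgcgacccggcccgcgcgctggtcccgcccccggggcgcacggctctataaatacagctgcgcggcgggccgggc
The letters searched on both strands were CCGGAAG (ETS), TGACTCA (AP-1), TGACGTCA (CRE), CACGTG (E-box) and GGCGCC (GC-rich SMAD). The only match in the 3 windows was GGCGCC in SPRY4, a motif held by 16.1% of all 27305 promoters and 24.6% of the 13500 of genes that passed the low-count filter. CCGGAAG was in 0 of the 20 promoters matched for the FGF and ERK list, in 2 of 27 for genes called lower, in 8.82% of all promoters and in 13.9% of those of filtered genes, and GGCGCC was in 8 of the 27 and in 7 of 31 for genes called higher, close to the share among filtered genes. Promoters of ETV4, ETV5, DUSP5 and FGF19 were not used here.

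Core pluripotency factors did not pass the test. POU5F1, the central factor of pluripotency, was at 2059, 1823 and 1869 CPM on LN523 and 2182, 2016 and 2243 CPM on LN323 (log2 fold change -0.16 ± 0.16, SE). NANOG was at 134, 132 and 123 CPM on LN523 and 188, 126 and 187 CPM on LN323 (-0.35 ± 0.19) and SOX2, shared with neural progenitors, at 496, 427 and 557 CPM on LN523 and 384, 509.6 and 374 CPM on LN323 (0.22 ± 0.17). Of 30 members of the core and primed list, 2 were called, both lower on LN523, beside 0.103% of all genes tested. The count was 0 when any 1 of LN323 replicates 1 and 3 and LN523 replicates 1 and 3 was left out. It was 10 and 8 without replicate 2 of LN323 and of LN523, and the list's median was -0.08. SFRP2, a secreted WNT modulator, was at 84, 268 and 82.5 CPM on LN523 and 368, 117 and 379.7 CPM on LN323, and THY1, a surface glycoprotein of hESCs, at 94, 186 and 67.4 CPM on LN523 and 255, 84.9 and 325 CPM on LN323 (12.5% of THY1 exons overlap its antisense gene). Both had LN523 replicate 2 among the high libraries and LN323 replicate 2 among the low ones, and the fits gave -1.11 ± 0.20 (adjusted p = 4.06e-05 in edgeR) and -0.99 ± 0.20 (6.69e-04). None of 14 naive pluripotency genes was called, with a median of -0.14. KLF5 was at 3.26, 4.27 and 5.65 CPM on LN523 and 2.83, 2.99 and 1.62 CPM on LN323, without overlap, and did not pass the test (0.83 ± 0.39, adjusted p = 1 in edgeR).

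Long non-coding RNAs tied to pluripotency held 3 lower calls among 8 tested, beside 0.103% of all genes tested. This list too was chosen with earlier results of these data known. It held 0 calls when LN323 replicate 1, LN323 replicate 3 or LN523 replicate 1 was left out. LINC00458 was at 3.48, 8.36 and 11.1 CPM on LN523 and 10.3, 18.7 and 16.8 CPM on LN323, lower on LN523 in each of the 3 lanes although the ranges overlapped (log2 fold change -1.04 ± 0.26 (SE), adjusted p = 0.0242 in edgeR). LINC-ROR, at 1.07, 3.81 and 1.01 CPM on LN523 and 6.70, 2.96 and 7.16 CPM on LN323, and LNCPRESS1, at 22, 36.1 and 17.8 CPM on LN523 and 53.3, 23.5 and 71.2 CPM on LN323, were lower in lanes 1 and 3 and higher in lane 2. Their log2 fold changes were -1.69 ± 0.42 (adjusted p = 0.0257 in edgeR) and -0.95 ± 0.23 (0.0162).

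Among BMP genes, 3 of 23 tested were higher with the block and 0 lower, beside 0.129% and 0.103% of all genes tested. Without the block 4 were higher, beside 0.166%. This list too was chosen with earlier results of these data known. The count called was 0 without LN323 replicate 1 or LN523 replicate 1 and 6 without LN323 replicate 2. The list's median was 0.32, with lane medians of 0.59, -0.13 and 0.79. ID4 (ENSG00000172201, chromosome 6, 19837370 to 19842197), a helix-loop-helix inhibitor of differentiation factors, stood at 40.9, 27.7 and 33.4 CPM on LN523 and 8.19, 18.2 and 8.89 CPM on LN323. Every LN523 library was above every LN323 library. ID4 was 2.98-fold higher on LN523 (log2 fold change 1.58 ± 0.24 (SE), adjusted p = 2.07e-07 in edgeR with the lane block and 1.54e-09 without it), and it kept an adjusted p under 0.05 in 12 of 19 alternative settings. Its log2 fold change was 1.19 to 2.13 when each day 2 library was left out. The alternative settings reuse the same libraries, so a count of them is not independent support, and the ID4 call was lost with filterByExpr. The LN521 libraries spanned 18.5, 20.1 and 35.9 CPM.

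ID1, another ID protein, was at 293, 174 and 263 CPM on LN523 and 100.3, 233 and 101 CPM on LN323, with LN323 replicate 2 inside the LN523 range (log2 fold change 0.77 ± 0.19 (SE), adjusted p = 0.0219 in edgeR). ID2 (0.53 ± 0.23) and ID3 (0.10 ± 0.19) did not pass. BMP2, a ligand of the pathway, was at 27.3, 24.1 and 19.3 CPM on LN523 and 9.51, 16.8 and 11.1 CPM on LN323. The groups did not overlap, and the gene passed without the block (adjusted p = 0.0171 in edgeR) and not with it (log2 fold change 0.91 ± 0.25, adjusted p = 0.0871). FST, a secreted antagonist of activins and BMPs, was at 46.5, 16.9 and 33.1 CPM on LN523 and 13.6, 21 and 9.17 CPM on LN323, and LN523 replicate 2 lay inside the LN323 range (log2 fold change 1.18 ± 0.24 (SE), adjusted p = 9.96e-04 in edgeR). BMP4 (0.47 ± 0.35), the receptor BMPR1A (0.10 ± 0.18) and the antagonist BAMBI (0.19 ± 0.23) did not pass. Beside these, the list of amnion, trophoblast and surface ectoderm genes, fates that BMP favours, held 0 calls among 21 tested. Over the 12 members that passed the low-count filter, the median was 0.54, with lane medians of 0.69, -0.27 and 0.79. The 7 amnion and trophoblast markers, 5 of them under 1 TPM in all 6 libraries, summed to 5.19 to 6.13 TPM on LN523 and 3.23 to 5.59 TPM on LN323. Their part in the BMP result was not tested.

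**Figure D3:**
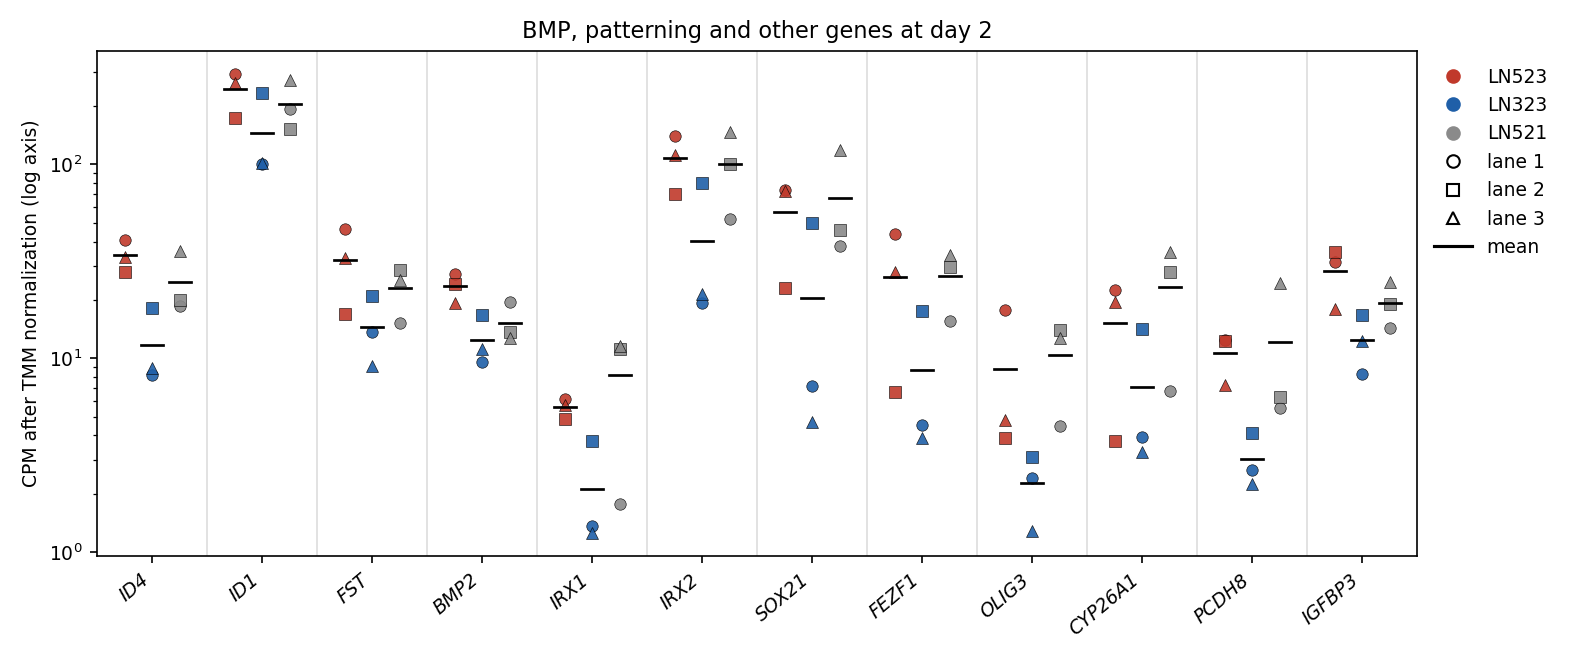
CPM on a log axis of 12 genes with higher levels on LN523 in each day 2 library, with colour for the matrix, symbol for the lane and a bar for the mean of 3. LN523 and LN323 do not overlap in ID4, BMP2, IRX1, OLIG3, PCDH8 and IGFBP3, and overlap in the other 6 genes, where the LN323 square (lane 2) lies above the LN523 square.

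Several transcription factor genes with roles in the early neural plate or the body axis passed the test one by one. IRX2 (chromosome 5, 2745845 to 2751677), an Iroquois homeobox factor, was at 141, 70.5 and 112 CPM on LN523 and 19.2, 80.3 and 21.5 CPM on LN323, and lane 2 gave the reverse sign (-0.19). It was 3.20-fold higher in the fit (log2 fold change 1.68 ± 0.21 (SE), adjusted p = 2.28e-11 in edgeR with the lane block and 3.29e-12 without it) and was called in 12 of 19 alternatives. The IRX2 call was lost with filterByExpr, where its spread was 7.46 times that of the fit over all genes. Its neighbour IRX1 was low, at 6.15, 4.89 and 5.73 CPM on LN523 and 1.37, 3.74 and 1.26 CPM on LN323, and did not overlap between the groups (log2 fold change 1.61 ± 0.35 (SE), adjusted p = 0.00362 in edgeR), and 18.4% of its exons overlap a gene on the opposite strand. The divergent transcript IRX2-DT followed IRX2 (2.31 ± 0.39, adjusted p = 7.07e-06 in edgeR).

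SOX21, a SOX factor of neural progenitors, was at 74, 23.1 and 72.9 CPM on LN523 and 7.22, 49.6 and 4.70 CPM on LN323, so LN323 replicate 2 exceeded LN523 replicate 2 (log2 fold change 1.81 ± 0.25 (SE), adjusted p = 2.59e-09 in edgeR). FEZF1, a zinc finger factor of the forebrain, was at 44, 6.71 and 27.9 CPM on LN523 and 4.54, 17.6 and 3.89 CPM on LN323, again with a reversed lane 2 (log2 fold change 1.78 ± 0.28 (SE), adjusted p = 3.13e-07 in edgeR). Leaving out each day 2 library gave 0.93 to 2.52 for IRX2, 0.81 to 3.44 for SOX21 and 0.69 to 2.77 for FEZF1, with the lowest value without LN523 replicate 1 (IRX2, FEZF1) or LN323 replicate 3 (SOX21). The antisense genes SOX21-AS1 (1.56) and FEZF1-AS1 (1.83) were called too, but 26.6% of FEZF1 exons overlap FEZF1-AS1 and the strand setting of the counting is not given in the sources used here, so their reads cannot be told apart in that stretch. OLIG3, a factor of the dorsal neural tube, was at 17.8, 3.87 and 4.78 CPM on LN523 and 2.43, 3.09 and 1.29 CPM on LN323 and did not overlap, with LN523 replicate 1 highest (log2 fold change 1.88 ± 0.33 (SE), adjusted p = 2.54e-05 in edgeR). LHX5 (1.64 ± 0.42, adjusted p = 0.037 in edgeR with the block and 0.145 without) depended on the block and gave 0.15 without LN523 replicate 1. The block also decided LMO3, which was lower on LN523 (-1.92 ± 0.44, 0.0104 and 0.0781).

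In the list of early neural and eye field genes, FEZF1 was the only call among 28 tested, and the median was 0.22 over the 21 that passed the low-count filter. The 6 neuroectoderm markers summed to 1.92 to 4.65 TPM on LN523 and 1.66 to 3.05 TPM on LN323, and their part in the patterning result was not tested. The eye field factors PAX6, RAX, SIX3, SIX6 and LHX2 had means under 2 CPM on both matrices, and none passed the test. OTX2, a forebrain factor also found in pluripotent cells, was at 135, 78.3 and 132 CPM on LN523 and 66.4, 108 and 63.7 CPM on LN323 (0.50 ± 0.19, not past the threshold). CYP26A1, which breaks down retinoic acid, was at 22.4, 3.75 and 19.6 CPM on LN523 and 3.91, 14.2 and 3.30 CPM on LN323. It was called higher on LN523 (log2 fold change 1.34 ± 0.29 (SE), adjusted p = 0.00277 in edgeR) with a reversed lane 2 (-1.90), its log2 fold change was 0.05 to 2.31 when each day 2 library was left out, and 25.3% of its exons overlap another gene on the same strand. It was the only call among 17 retinoic acid genes. Of 24 genes of the NODAL pathway and mesendoderm, 0 were called with or without the block, and NODAL itself was at 2.13 ± 1.35 CPM on LN523 and 4.67 ± 2.59 CPM on LN323 (SD, n = 3; log2 fold change -1.38 ± 0.41, adjusted p = 0.233 in edgeR).

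Of adhesion genes, 1 cadherin and 3 protocadherins passed the test, all higher on LN523. PCDH8, a protocadherin of early mesoderm and neural tissue, was at 12.4, 12.3 and 7.25 CPM on LN523 and 2.65, 4.14 and 2.24 CPM on LN323, without overlap and higher in all 3 lanes (2.20, 1.56 and 1.67). It was 3.62-fold higher (log2 fold change 1.86 ± 0.30 (SE), adjusted p = 2.44e-06 in edgeR with the lane block and 1.93e-07 without it) and was called in 13 of 19 alternatives, the most of the 54 genes followed through every setting. These alternatives reuse the same libraries, so the count is not independent support, and the call was lost with filterByExpr and with limma-voom. PCDH7 was at 115, 53.6 and 78.9 CPM on LN523 and 25.2, 57.7 and 21.4 CPM on LN323, with LN523 replicate 2 below LN323 replicate 2 (log2 fold change 1.34 ± 0.21 (SE), adjusted p = 2.73e-07 in edgeR). PCDH18 (0.92 ± 0.19, adjusted p = 0.00119 in edgeR) and CDH6 (1.92 ± 0.29, 1.22e-07), a cadherin of neural and kidney progenitors, had the reversed lane 2. Of 30 cadherin and junction genes in the list, CDH6 was the only call, and the 53 clustered protocadherins held 0 calls with a median of 0.00.

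Cytoskeletal genes gave single calls. VIM, the intermediate filament vimentin, was at 196, 68.4 and 228 CPM on LN523 and 66.4, 162 and 56 CPM on LN323 (log2 fold change 0.87 ± 0.20 (SE), adjusted p = 0.0083 in edgeR), and 24.6% of its exons overlap its antisense gene. The actin-bundling protein PLS3 (0.84 ± 0.20, adjusted p = 0.0118 in edgeR) and the myosin regulator LIMCH1 (2.82-fold, 6.50e-04) were higher. AMOTL1, an angiomotin that binds YAP, was lower (-0.86 ± 0.21, 0.0159). Without LN523 replicate 1 VIM and LIMCH1 gave 0.32 and 0.38, and AMOTL1 gave -0.15 without LN323 replicate 3. VIM was the only call in 23 cytoskeletal and SRF target genes, and IGFBP3 and AMOTL1 were the only calls in 22 YAP and TEAD target genes, one in each direction.

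No gene that builds or binds the matrix passed the test among those listed. None of 11 laminin chain genes was called, and the median was -0.03. LAMA5, the alpha chain of LN523, was at 179, 143 and 191 CPM on LN523 and 129, 215 and 132 CPM on LN323 (0.12 ± 0.18, SE), and LAMA3, the alpha chain of LN323, at 4.28, 5.01 and 3.04 CPM on LN523 and 6.66, 4.98 and 7.10 CPM on LN323 (-0.66 ± 0.34). LAMC3, the gamma chain that both isoforms contain, was at 31.8, 35.2 and 31.5 CPM on LN523 and 44.2, 39.8 and 44.4 CPM on LN323. All LN523 libraries lay below all LN323 libraries for LAMC3, but the difference did not pass (-0.38 ± 0.21, adjusted p = 1 in edgeR, unadjusted p = 0.0496 without low-count genes). Among 14 laminin receptors 0 were called. The integrin chains ITGA6 and ITGB1, the main laminin receptor of hESCs, gave log2 fold changes of 0.13 ± 0.17 and -0.12 ± 0.17, DAG1 (dystroglycan) gave -0.07 ± 0.18, and BCAM, which binds the alpha chain of LN523, gave -0.07 ± 0.19. The lists of other integrins (14 tested), basement membrane glycoproteins (32), collagens (26) and focal adhesion genes (26) each held 0 calls with medians of 0.03, -0.08, -0.02 and -0.13.

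The genes whose groups did not overlap included several receptors and secreted proteins. KDR (chromosome 4, 55078481 to 55125595), the VEGF receptor that hESCs also express, was at 128, 164 and 180.4 CPM on LN523 and 307, 229 and 276 CPM on LN323. It was lower on LN523 in every lane (-1.26, -0.48 and -0.61) and 1.72-fold lower in the fit (log2 fold change -0.79 ± 0.18 (SE), adjusted p = 0.0102 in edgeR with the lane block and 0.00168 without it), and its log2 fold change was -0.95 to -0.60 when each day 2 library was left out. KDR was the only call among 11 endothelial and blood genes. Of 5 endothelial and blood markers, 4 were under 1 TPM in all 6 libraries. The other, TEK, was at 35.8, 49.3 and 34.0 TPM on LN523 and 36.6, 33.7 and 50.5 TPM on LN323. EDNRB, the endothelin receptor B, was at 20.5, 22.5 and 29.5 CPM on LN523 and 49.8, 45 and 33.9 CPM on LN323 (log2 fold change -0.84 ± 0.21 (SE), adjusted p = 0.0426 in edgeR). IGFBP3, which binds insulin-like growth factors, was at 31.3, 35.3 and 17.9 CPM on LN523 and 8.25, 16.7 and 12.3 CPM on LN323, higher in all 3 lanes and past the threshold in 12 of 19 alternatives (log2 fold change 1.22 ± 0.24 (SE), adjusted p = 6.19e-04 in edgeR). This call too was lost with filterByExpr.

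SHISA3, an inhibitor of WNT and FGF receptor maturation, was at 19.6, 7.76 and 10.6 CPM on LN523 and 6.75, 5.66 and 3.69 CPM on LN323 (log2 fold change 1.24 ± 0.30 (SE), adjusted p = 0.0217 in edgeR). APELA, a secreted peptide made by hESCs, was at 319, 233 and 384 CPM on LN523 and 62, 224 and 103 CPM on LN323, and its lane 2 values were nearly equal (log2 fold change 1.35 ± 0.19 (SE), adjusted p = 4.83e-09 in edgeR). NRN1, a membrane-anchored neurite factor, was very low on both matrices, at 0.340, 0.0569 and 0.362 CPM on LN523 and 3.10, 1.40 and 0.447 CPM on LN323 (log2 fold change -2.49 ± 0.62 (SE), adjusted p = 0.0254 in edgeR). Other called genes with a reversed lane 2 were FAM20A, a secretory pathway pseudokinase (2.27 ± 0.27), SERPINB9, a granzyme inhibitor (1.49 ± 0.21), the cation channel TRPC4 (1.70 ± 0.26), the imprinted cell cycle inhibitor CDKN1C (1.00 ± 0.22) and SESN3 (0.97 ± 0.20). On the lower side these were DACT1, a regulator of WNT signalling (-2.18 ± 0.32, and -1.58 without the block), the mitochondrial adenylate kinase AK4 (-1.08 ± 0.19) and SEPHS1 (-0.84 ± 0.18). The WNT receptor FZD8 was called only without the block (adjusted p = 0.016 against 0.071 in edgeR), and of 43 WNT genes SFRP2 alone passed with it. Without the block 2 of the 43 were called higher, FZD8 among them. In addition, 6 of the 50 genes called higher have no entry in GENCODE 44 and are not named. The largest log2 fold change among the 50 was 7.25, in a gene left unnamed, so the named genes do not show the largest differences.

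Some lists had a median away from that of all genes although no member passed the test. Replication-dependent histone genes, which are transcribed in S phase and carry no poly(A) tail, were lower on LN523 in 59 of the 61 members that passed the low-count filter, beside 53% of all genes that passed it, with a median log2 fold change of -0.34 and lane medians of -0.42, 0.08 and -0.67. Their summed level was 13977, 15477 and 12126 CPM on LN523 and 18301, 15336 and 17806 CPM on LN323. LN323 replicate 2 lay within the LN523 range, and the LN521 libraries were lower than both (8585, 10930.2 and 8789.9 CPM). Groups did not overlap, with LN523 below, for 14 of the histone genes, beside 3.69% of all filtered genes. Of 21 DNA replication and S phase genes, 20 were lower with a median of -0.13, while lane medians were -0.13, 0.35 and -0.65, and 22 mitosis genes had a median of -0.01. Metallothionein and zinc export genes were lower in 10 of 11, with a median of -0.34 and a highest summed level in LN323 replicate 1 (601, 280.3 and 370.0 CPM on LN323 and 352, 315 and 301 CPM on LN523).

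Hypoxia targets differed between the libraries of a lane, in opposite directions in lanes 2 and 3. Their summed level was 1049, 478 and 1432 CPM on LN523 and 1014, 1339 and 517 CPM on LN323, low in LN523 replicate 2 and LN323 replicate 3. In the fit 11 members were higher and 11 lower, and the lane medians were -0.20, -1.20 and 1.47. Glycolysis genes had the same low libraries, at 23611, 18208 and 24112 CPM and 22759.9, 25228 and 19896 CPM, with lane medians of 0.04, -0.66 and 0.43. Neither list held a call among 22 and 23 genes tested. The part of these differences between libraries in the calls above was not tested. The 0 calls extended to the lists of cholesterol synthesis, fatty acid synthesis, integrated stress response, unfolded protein response, heat shock, p53 targets, interferon response, neuronal and photoreceptor genes, whose medians ranged from -0.11 to 0.18. The list of 83 cytosolic ribosomal protein genes held 0 calls and a median of -0.02.

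**Figure D4:**
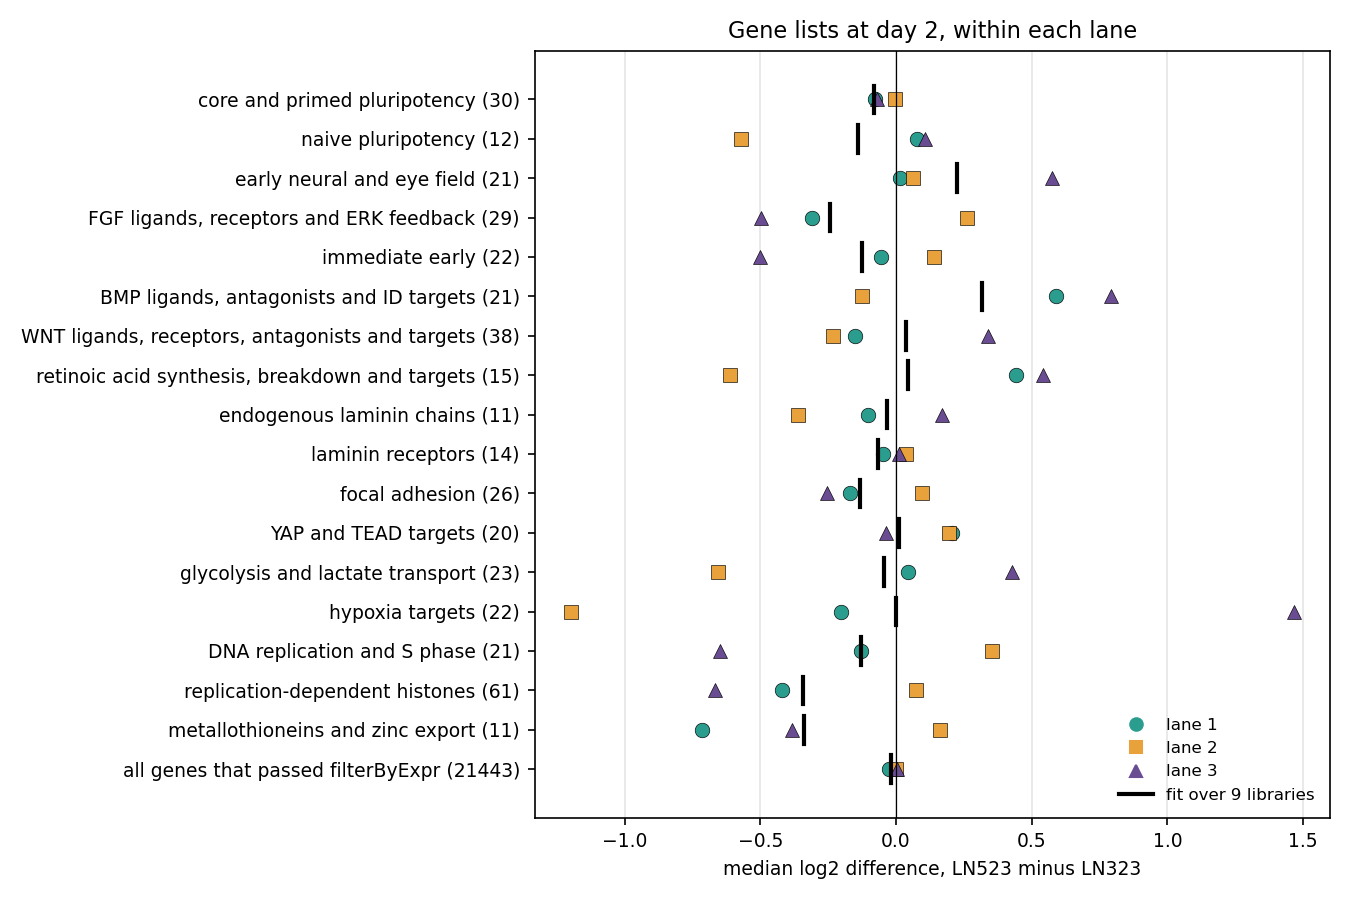
Median log2 difference between LN523 and LN323 for 17 gene lists and for all genes that passed the low-count filter, with a symbol for each lane and a black bar for the fit over 9 libraries (number of genes in brackets). For FGF and ERK feedback genes (-0.31, 0.26 and -0.50) and BMP genes (0.59, -0.13 and 0.79) the lane 2 square lies on the other side of 0 from lanes 1 and 3, while all 3 symbols of the laminin receptors lie near 0.

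The day 2 differences were compared with those of the later libraries, which are separate samples of the same matrices at days 22 and 32. In fits of 18 libraries with lane within day as block, the difference between LN523 and LN323 changed from day 2 to day 22 in 32 of 42785 genes (0.0748%) and from day 2 to day 32 in 73 of 43294 (0.169%). Without the block these were 0 (1297 at an unadjusted p under 0.05) and 5 (0.0115%), and without low-count genes 0 (468) and 0 (620). The day 22 count fell to 0 without LN323 day 2 replicate 1, to 5 without LN323 day 2 replicate 3, to 1 without LN523 day 2 replicate 1, to 17 without LN523 day 2 replicate 3 and to 19 without LN523 day 22 replicate 3, and rose to 294, 188 and 122 without LN323 day 2 replicate 2, LN523 day 2 replicate 2 and LN523 day 22 replicate 2. The day 32 count was 27, 40, 27 and 28 without LN323 day 2 replicate 1, LN323 day 2 replicate 3, LN523 day 2 replicate 1 and LN523 day 32 replicate 3, and 300, 223 and 112 without LN323 day 2 replicate 2, LN523 day 2 replicate 2 and LN523 day 32 replicate 2.

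Of the 50 genes called higher at day 2, 30 were also higher on LN523 at day 22 and 23 at day 32, beside 53.2% and 50.7% of the genes that passed the filter at day 2. Of the 40 called lower, 18 and 20 were lower. DUSP6 gave 0.13 ± 0.25 (SE), adjusted p = 1 in edgeR at day 22 and 0.32 ± 0.28 (SE), adjusted p = 1 in edgeR at day 32, and ID4 gave -0.13 and 0.28. At day 22, 2 of the 90 passed the test again, beside 0.0233% of those genes, namely FEZF1 and its antisense gene. FEZF1 was at 17.8, 0.0488 and 5.47 CPM on LN523 and 4.13, 0.187 and 1.65 CPM on LN323 on day 22 (1.70 ± 0.31 (SE), adjusted p = 5.86e-04 in edgeR) and at 2.44, 0.545 and 2.57 CPM on LN523 and 0.661, 0.536 and 0.156 CPM on LN323 on day 32 (2.45 ± 0.41 (SE), adjusted p = 8.03e-06 in edgeR). Lanes 1 and 3 were higher on LN523 on both days, and lane 2 was near 0 CPM on both matrices at day 22. Neither call of FEZF1 held without the block (adjusted p = 1 and 0.174 in edgeR) or without low-count genes. At day 32, 5 of the 90 passed (0.452% of the filtered genes). Besides the FEZF1 pair, THY1 was lower again (-0.89 ± 0.22 (SE), adjusted p = 0.0213 in edgeR), while PCDH18 (-0.80 ± 0.20 (SE), adjusted p = 0.0261 in edgeR) and ZDHHC22 (1.64 ± 0.30, 7.49e-05) had the opposite sign to day 2. Without the block THY1 and PCDH18 had adjusted p-values of 0.776 and 0.447 in edgeR.

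**Figure D5:**
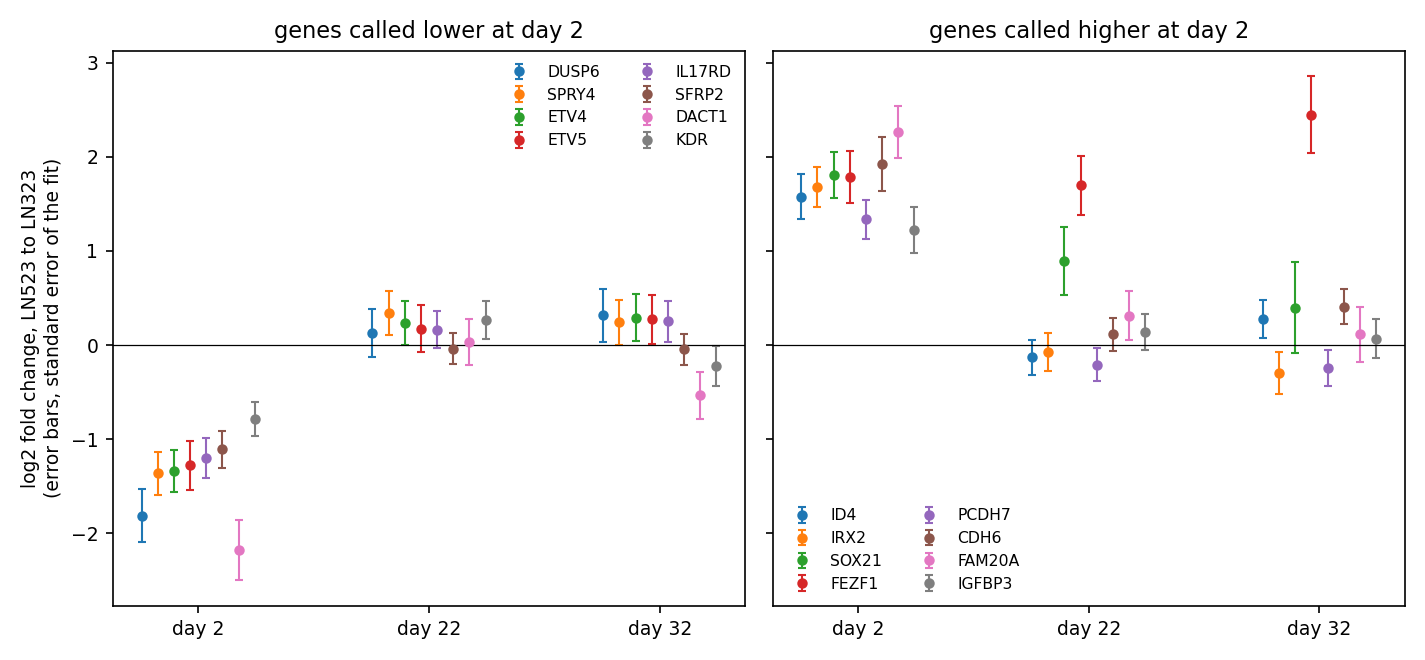
Log2 fold change between LN523 and LN323 at days 2, 22 and 32 for 8 genes called lower and 8 called higher at day 2, with the standard error of the fit as error bars. FEZF1 stays above 1 on each day, and DUSP6 goes from -1.81 at day 2 to 0.13 at day 22 and 0.32 at day 32.

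In the cultures on LN521, libraries of neither group, 12 of the 50 genes called higher had risen from day 2 to day 22 and 23 had fallen (adjusted p under 0.05 in edgeR, lane as block), against 21.7% and 21.2% of the genes that passed the filter. Of the 40 called lower, 10 had risen and 25 had fallen. Among genes higher on LN523, ID4 (2.54), CDH6 (4.41), LIMCH1 (4.04) and PCDH7 (2.69) rose on the log2 scale, while APELA (-6.72), SOX21 (-4.15) and OLIG3 (-3.30) fell. Among genes lower on LN523, KDR (-5.34), LINC00458 (-6.49) and ETV4 (-3.40) fell, and SFRP2 (3.65), FGF19 (2.92) and DACT1 (2.57) rose.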

How the data were processed

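Bulk RNA-seq of H1 cells on 3 matrices was analysed for the 9 libraries of day 2, with those of days 22 and 32 for comparison. Total RNA was depleted of ribosomal RNA, and stranded libraries were sequenced as 150 bp read pairs. The authors trimmed reads with cutadapt, aligned them to GRCh38 with STAR 2.5.2b and counted them per gene with featureCounts 1.5.1, removed ribosomal and mitochondrial genes, and deposited whole-number counts per gene without normalization. TPM values, likewise deposited, served for marker genes only. Whether strand was used in counting is not given in the sources used here. Of the non-zero counts of a day 2 library, 67.2% to 72.1% were even, as when both mates are counted.

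Genes were named by GENCODE 44 (43052 of 44852 matched). Genes whose counts summed to over 1 were tested by the quasi-likelihood method of edgeR 4.0.16 (R 4.3.3) after TMM scaling. The factor was the matrix, and the lane was a block, as in the study's model. P-values were corrected after Benjamini and Hochberg, and the threshold was 0.05. The replicate number equals the lane, the same-lane r of LN523 and LN323 was -0.34 to 0.04, and counts of calls are given with and without the block. Alternatives were DESeq2 1.42.0, RLE normalization, filterByExpr, fits of 6 or 27 libraries, limma-voom (3.58.1) and leaving out each library. On simulated data the share of false calls was above the threshold in the fits over all genes and below it with filterByExpr. The simulated libraries had no lane effect and no shared order, unlike the real ones, so these shares are not those of the real data. BLAST 2.17.0 and the annotation gave shared exons and near copies. The members and the 49 gene lists were chosen with earlier results of these data known. Genes named were taken from called genes of at least 1 CPM with the same sign in all 3 lanes (up to 12 in each direction). Others were list members that passed with or without the block, or those with the highest CPM of each list described. Genes called in both fits were a further source. Near-identical copies, pseudogenes and genes without a symbol were left out, and not every gene that met these rules is named. Members singled out for their values were chosen after these were seen. No deposited column was left without a sample.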

Additional observations from a re-analysis of the deposited data

Results flagged for a closer look

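Among the genes named, the difference between LN523 and LN323 was not the same at day 2 and at a later day for some, by edgeR's test of the interaction (adjusted p under 0.05, lane within day as block). The values are the change of the log2 difference (later minus day 2), and none of these calls held in the fit without low-count genes. From day 2 to day 22, genes lower on LN523 at day 2 moved up: DUSP6 (1.96), SPRY4 (1.72), ETV4 (1.59), IL17RD (1.39), SFRP2 (1.08), THY1 (1.39), DACT1 (2.21), SHC3 (2.13), LMO3 (2.10). Genes higher on LN523 at day 2 moved down: ID4 (-1.69), FGFR3 (-1.38), VIM (-1.07), CDH6 (-1.77), FAM20A (-1.93), IRX2 (-1.73), LIMCH1 (-1.45), PCDH7 (-1.52), PCDH18 (-1.24), SERPINB9 (-1.33), SESN3 (-1.09), TRPC4 (-1.69). From day 2 to day 32, those lower at day 2 moved up: DUSP6 (2.15), SPRY4 (1.62), ETV4 (1.65), ETV5 (1.57), IL17RD (1.47), FGF19 (1.94), SFRP2 (1.08), DACT1 (1.65), NRN1 (3.09). Those higher at day 2 moved down: ID4 (-1.28), FST (-1.77), CDH6 (-1.48), FAM20A (-2.14), IRX1 (-2.47), IRX2 (-1.96), IRX2-DT (-2.84), LIMCH1 (-1.52), PCDH7 (-1.55), PCDH18 (-1.70), PLS3 (-1.33), SERPINB9 (-1.53), SESN3 (-1.34), OLIG3 (-3.67), SHISA3 (-2.74), TRPC4 (-2.15). These genes were named for their day 2 difference, so a return towards 0 is the direction that the choice favours.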

How the results depend on the processing

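The number of genes past the threshold at day 2 was 90 with the replicate block and 103 without it, and 91 with RLE normalization, 99 with all 27 libraries and 84 among genes in GENCODE 44. It was 0 with filterByExpr with or without the block, 0 with limma-voom, 0 in a fit of the 6 LN523 and LN323 libraries with the block and 23 without it, and 706 with DESeq2 and lane against 0 without lane (817 at an unadjusted p under 0.05). The settings with limma-voom, filterByExpr without the block and GENCODE 44 genes were chosen after seeing the data. Leaving out 1 library gave 8 to 763 genes. For the change from day 2 to day 22 the count was 32, and 0 without the replicate block and with filterByExpr, and 0 to 294 leaving out 1 library. For day 32 it was 73, 5 without the block, 0 with filterByExpr, and 27 to 300 leaving out 1 library. For LN521 cultures between days 22 and 2 it was 10053, and 10154 without the block. None of the 54 genes followed through 19 alternatives changed sign, but they were chosen for passing on these same libraries, which favours a kept sign. Most calls had the opposite sign in lane 2. The cause of the lost calls was not tested. The block changed the call of ARC, LHX5, LMO3, BMP2 and FZD8 among those genes. Same-lane libraries of LN523 and LN323 did not deviate together, and counting error was small beside the spread between replicates (mean chi-square per gene 14.7 to 82.3).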
